A study of Mus musculus with 8 samples.

Results

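Acetylcholine is made from choline, so the genes that make, store, recover, break down and sense it were followed in brains of mouse embryos whose mothers were fed with or without choline. The 10 genes are *Chat*, *Slc18a3*, *Slc5a7*, *Ache*, *Chrna3*, *Chrna4*, *Chrna7*, *Chrnb2*, *Chrm2* and *Chrm3*, which were picked by name from a table of 33971 genes, without a rule on their values. Earlier results of these data were already known at that point, that of *Ache* among them, so its result below is not independent evidence. Whole brains of wild-type (WT) embryos were collected at E14.5 (embryonic day) from WT females mated with WT males. The females received a normal chow diet (ND, 4 brains) or a choline-deficient diet (CDD, 4 brains). Feeding on the CDD began with mating according to the design text and the methods, but before mating according to a legend in the supplement, and the number of dams and litters behind these brains is not given. Polyadenylated RNA of each brain was sequenced in bulk, and the gene counts of a brain added up to 31770217 to 43121170 reads.

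A cholinergic neuron makes acetylcholine from choline and acetyl-CoA with choline acetyltransferase, the product of *Chat*. The vesicular acetylcholine transporter, encoded by *Slc18a3*, loads it into synaptic vesicles, and acetylcholinesterase, encoded by *Ache*, splits it after release. The freed choline is taken up again by the high-affinity choline transporter, encoded by *Slc5a7*. Acetylcholine acts on nicotinic receptors, which are ion channels built of subunits (here *Chrna3*, *Chrna4*, *Chrna7* and *Chrnb2*), and on muscarinic receptors, which couple to G proteins (here *Chrm2* and *Chrm3*). Main cholinergic cells of the rodent brain are the projection neurons of the basal forebrain, the interneurons of the striatum and the motor neurons of the brainstem.

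The study labels the tissue as brain, and 7 of 7 brain markers (*Sox2*, *Dcx*, *Tubb3*, *Neurod1*, *En1*, *Hes5* and *Map2*) passed the filter on low counts, with a summed level of 4849 to 5545 CPM (counts scaled to a common library size) in CDD brains and 4878 to 4992 CPM in ND brains. CDD replicate 2 stood apart from the other brains. The 28 *Hox* genes of the table, which mark the caudal hindbrain and spinal cord, summed to 4984 counts there and to between 16 and 112 counts in the other 7 brains. Results that rest on this brain are therefore given with and without it. Summed levels of neural progenitor markers were higher in every CDD brain (2317 to 2665 CPM) than in every ND brain (2034 to 2191 CPM), and 6 of 12 rose, *Top2a* and *Nes* among them; of all genes tested, 4.24% rose and 4.59% fell. Of 15 neuron markers, *Gad2* rose and *Snap25*, *Syp* and *Gap43* fell, with summed levels of 7439 to 8300 CPM in CDD and 7629 to 7915 CPM in ND brains. Of the markers of other tissues that a dissected brain could carry, 0 of 6 skeletal muscle markers tested, 0 of 6 peripheral ganglion markers and 0 of 9 erythroid markers passed the threshold in either direction, 2 of 3 primitive erythroid genes were higher in CDD brains, and of 5 meningeal genes 1 was higher and 2 were lower. The part of these shifts in the results below was not tested.

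*Chat* and *Slc18a3* form a single locus, in which *Slc18a3* lies inside *Chat* on the same strand. In the authors' table, on a build that is not named, *Chat* runs from position 32130160 to 32187946 of the minus strand of chromosome 14 and *Slc18a3* from 32184395 to 32186807. No exon bases are shared between the transcripts of the 2 genes in GENCODE M21 (0 of 2413 exon bases of *Slc18a3*). Their RefSeq start sites lie 1059 bases apart, so the promoter windows given below do not overlap. Whether the 2 genes share regulatory sequence was not tested. The promoters of this pair and of *Ache*, the gene that fell, follow here from 250 bases before to 50 bases after the RefSeq start (GRCm38.p6), 5′ to 3′ along the gene, with capitals marking GC boxes (GGGCGG or its reverse complement CCGCCC), the motif known to be bound by factors of the Sp family. They span chr5:137288004-137288303 on the plus strand for *Ache*, and chr14:32465860-32466159 and chr14:32464801-32465100 on the minus strand for *Chat* and *Slc18a3*.
Ache: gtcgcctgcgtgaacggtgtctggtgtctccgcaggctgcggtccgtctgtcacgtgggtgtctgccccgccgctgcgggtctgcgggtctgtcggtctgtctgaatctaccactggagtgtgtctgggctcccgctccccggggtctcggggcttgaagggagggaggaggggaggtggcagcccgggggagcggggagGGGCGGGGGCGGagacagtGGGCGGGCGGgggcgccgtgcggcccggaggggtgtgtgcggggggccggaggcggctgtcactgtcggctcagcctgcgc
Chat: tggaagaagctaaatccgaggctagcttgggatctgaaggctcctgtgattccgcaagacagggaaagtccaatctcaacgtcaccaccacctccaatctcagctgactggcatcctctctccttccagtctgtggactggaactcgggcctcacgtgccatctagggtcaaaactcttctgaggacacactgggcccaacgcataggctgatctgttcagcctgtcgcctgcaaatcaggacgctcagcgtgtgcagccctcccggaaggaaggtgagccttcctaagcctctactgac
Slc18a3: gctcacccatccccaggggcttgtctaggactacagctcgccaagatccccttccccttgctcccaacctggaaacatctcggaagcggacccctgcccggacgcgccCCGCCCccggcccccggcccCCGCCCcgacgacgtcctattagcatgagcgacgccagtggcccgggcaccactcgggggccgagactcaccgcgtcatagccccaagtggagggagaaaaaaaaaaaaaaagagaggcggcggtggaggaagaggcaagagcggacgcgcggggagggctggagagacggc
The *Ache* promoter is 74.0% G and C, that of *Slc18a3* 67.0% and that of *Chat* 55.7%, against a median of 52.7% over all RefSeq promoters. The *Ache* window holds 4 GC boxes between positions -50 and -27 from the start, counted at the first base of each match, the *Slc18a3* window holds 2, and the *Chat* window holds 0. Matches to the site GCGNGGGCG of EGR factors stand at positions -48 and -25 in *Ache* and overlap its GC boxes. Promoters of all 10 genes were found in the RefSeq table, and on both strands 7 of the 10 hold a GC box, against 35.7% of 32851 promoters. The EGR site was found in 2 of the 10 (*Ache* and *Chrna7*), against 5.55% of promoters. The TATA box (TATAAA) was found in 1 (*Slc5a7*, at position -187), against 13.6%. These are matches of letters, which say nothing of binding in these brains.

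Levels of different genes were compared as FPKM, in which reads are scaled to gene length. *Chrnb2*, the most common beta subunit of brain nicotinic receptors, had the highest mean of the 10 genes, at 14.85 ± 0.644 FPKM (SD over the 8 brains). *Chrna4*, its usual alpha partner, followed at 9.66 ± 1.17 FPKM, and *Ache* at 4.61 ± 0.924 FPKM. *Chrna7*, which forms receptors of its own, had 3.07 ± 0.153 FPKM and *Chrna3* had 2.60 ± 0.260 FPKM. The muscarinic genes *Chrm3* and *Chrm2* had 1.54 ± 0.144 and 1.28 ± 0.175 FPKM. The genes that define the cholinergic neuron itself came last, with 0.821 ± 0.605 FPKM for *Slc18a3*, 0.655 ± 0.215 FPKM for *Slc5a7* and 0.133 ± 0.0472 FPKM for *Chat*. *Chat* lay below *Slc5a7* in 8 of 8 brains, and its level rested on 12 to 30 reads per brain. The ranges over the 8 brains did not overlap between *Chrnb2* and *Chrna4*, *Chrna4* and *Ache*, *Chrna3* and *Chrm3*, or *Slc5a7* and *Chat*. The other neighbours overlapped in range: *Ache* was above *Chrna7* and *Chrm3* above *Chrm2* in 8 of 8 brains, *Chrna7* above *Chrna3* and *Chrm2* above *Slc18a3* in 7 of 8, and *Slc18a3* above *Slc5a7* in only 4 of 8. Among these 10 genes, every receptor gene and the esterase gene thus stood above the enzyme and transporter genes in the mean of these samples. In 7 of the 8 brains the 28 *Hox* genes, which mark the caudal hindbrain and spinal cord, summed to only 16 to 112 counts. How much of the brainstem, with its motor neurons, each sample held was not tested.

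**Figure D1:**
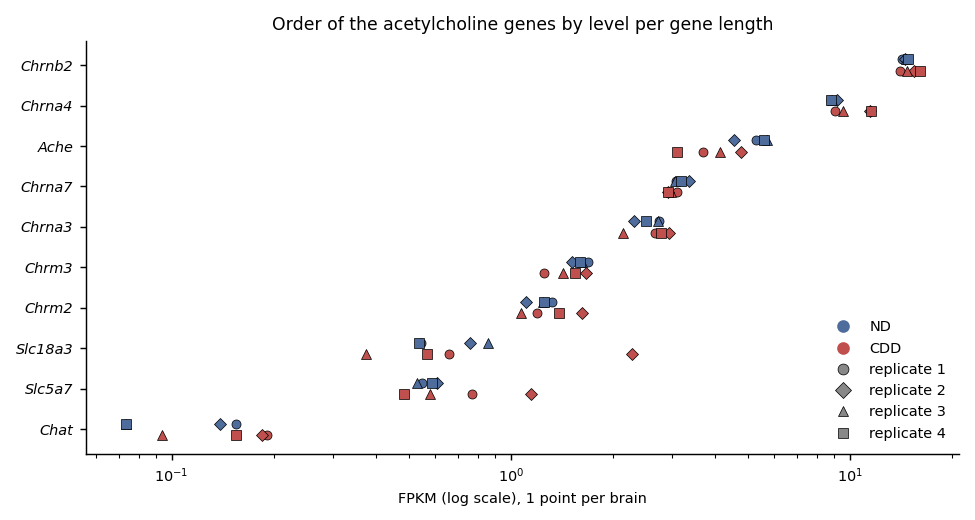
Level of each acetylcholine gene in FPKM (log scale) in each of the 4 ND (blue) and 4 CDD (red) brains, with the symbol giving the replicate number and the genes in order of their mean. *Chrnb2* is at the top with 14.09 to 16.09 FPKM and *Chat* at the bottom with 0.0731 to 0.191 FPKM, and the single *Slc18a3* point at 2.27 FPKM is CDD replicate 2.

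Next, the diets were compared gene by gene on the raw counts with the quasi-likelihood test of edgeR, adjusted by Benjamini-Hochberg over the 19367 genes tested, with an adjusted p-value under 0.05 as the threshold. Of the 10 acetylcholine genes, *Ache* fell in CDD brains and the other 9 did not pass the threshold, so 1 of 10 was lower and 0 of 10 were higher. Across all genes tested, 8.83% passed the threshold, 4.24% higher and 4.59% lower in CDD brains, so the share among these genes was near the background. At an unadjusted p-value under 0.05 in the same test, *Ache* was lower and *Chrna4* was higher, where 4627 of the 19367 genes tested passed in either direction. The CPM values of the diets did not separate fully for any of them (0 of 10, against 15.0% of all genes tested). Their median log2 fold change (CDD over ND) was 0.07, with 7 above and 3 below 0, and that of all genes tested was -0.0038. Without CDD replicate 2, the count was again 1 of 10.

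**Figure D2:**
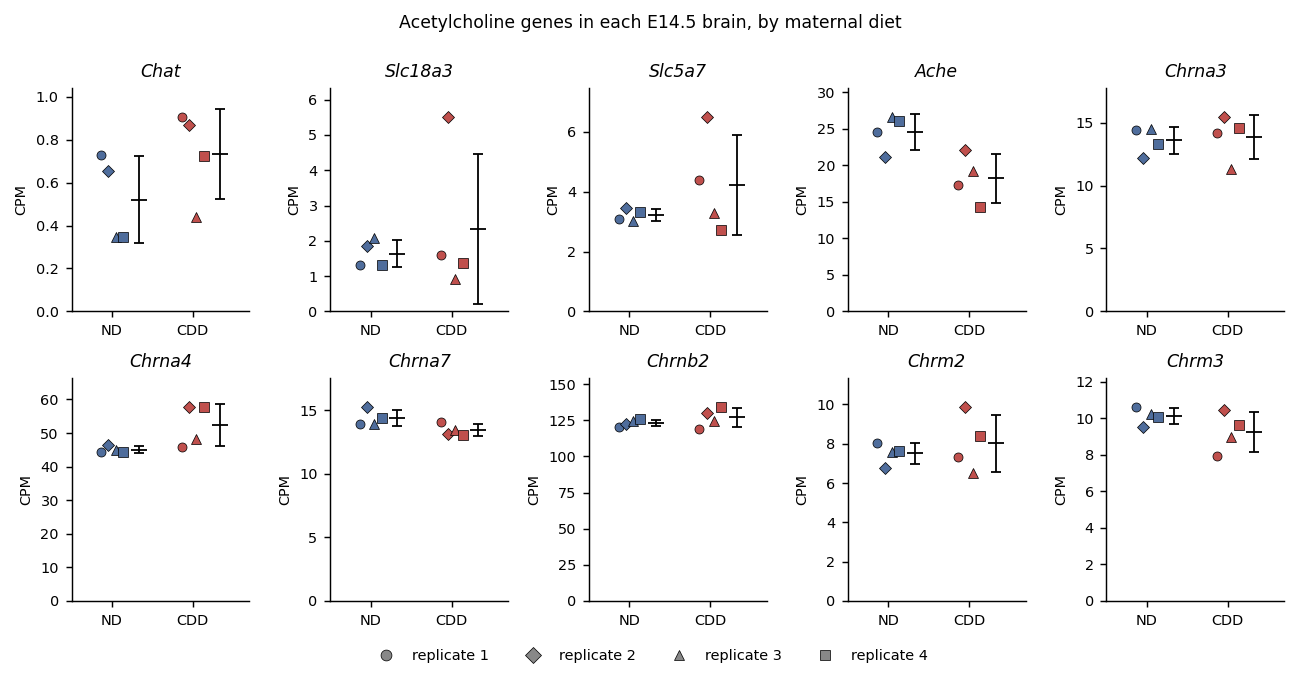
CPM of the 10 acetylcholine genes in each ND (blue) and CDD (red) brain, with symbols for the replicate numbers and a black bar for the mean ± SD of the 4 brains of a diet; every axis starts at 0. *Ache* is lower in 3 of 4 CDD brains than in every ND brain, and *Slc18a3* and *Slc5a7* have a single high point, CDD replicate 2, at 5.51 and 6.49 CPM.

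The esterase gene *Ache* (ENSMUSG00000023328), which ends the acetylcholine signal, lies at positions 137285781 to 137292728 of the plus strand of chromosome 5 in the authors' table. It measured 17.2, 22.2, 19.3 and 14.3 CPM in CDD replicates 1 to 4, and 24.5, 21.2, 26.6 and 26.0 CPM in ND replicates 1 to 4. The diets overlapped by a single crossing, since CDD replicate 2 lay above ND replicate 2. *Ache* therefore had 18.2 ± 3.33 CPM in CDD brains and 24.6 ± 2.43 CPM in ND brains (SD, n = 4 each). It fell by 0.43 on the log2 scale (SE 0.117, 95% interval -0.68 to -0.18), and its adjusted p in the edgeR test was 0.0411. The direction was the same in all 18 alternative fits, with log2 fold changes from -0.53 to -0.33, but the adjusted p stayed under 0.05 in 10 of them and ranged from 4.96e-07 to 0.127. The lowest value came from the fit without a filter on low counts, and the next was 0.00255 with DESeq2. Without CDD replicate 2 the adjusted p was 0.00449, and the call was lost without CDD replicate 1 (0.0931) or without ND replicate 1 (0.0947), 3 (0.127) or 4 (0.115). In a bulk sample, fewer cells that express a gene and less RNA per cell cannot be told apart. *Ache* is also known from red blood cells, and erythroid markers summed to 633 to 1234 CPM in CDD and 794 to 2952 CPM in ND brains, while the 3 primitive erythroid genes summed to 114 to 222 CPM in CDD and 33.3 to 45.0 CPM in ND brains; their part was not tested. An antisense gene, *Gm42456*, shares 98 exon bases with *Ache* (2.12% of its exon bases) and had 0 to 7 counts, and the microRNA gene *Mir8116* inside *Ache* had 2 to 11 counts.

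Genes whose profile over the 8 brains lay closest to that of *Ache* were *Ace*, *Apoe* and *Fxyd7*, with a root mean square difference in centred log2 CPM of 0.0671, 0.0720 and 0.0784 among 5598 candidate genes. *Ace* encodes the angiotensin-converting enzyme and *Apoe* a lipid carrier of the brain, and *Fxyd7* encodes a regulator of the sodium pump. *Fxyd7* fell by 0.52 on the log2 scale (adjusted p 0.0204, edgeR), while *Ace* at -0.34 (adjusted p 0.0593) and *Apoe* at -0.36 (adjusted p 0.124) missed the threshold. All 3, picked for their likeness to *Ache* over the same brains, shared its order at the ends, being lowest in CDD replicate 4 and highest in ND replicate 3.

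The genes of acetylcholine synthesis, storage and choline recovery did not pass the threshold, and their values ranged more widely among the CDD brains than the means of the diets differed. The enzyme gene *Chat* (ENSMUSG00000021919) had 30, 30, 19 and 24 counts in CDD replicates 1 to 4 and 25, 21, 12 and 12 counts in ND replicates 1 to 4. In CPM this was 0.735 ± 0.211 in CDD and 0.521 ± 0.202 in ND brains, with overlap between the diets. The log2 fold change of 0.48 had a 95% interval of -0.19 to 1.16 (adjusted p 0.391, edgeR), so no difference of *Chat* was detectable at this depth. The genes with the closest profiles to *Chat* were *Gm15775*, *Gm43062* and *Txlnb*, at root mean square differences of 0.173, 0.219 and 0.224 among 2054 candidates. A long non-coding gene on the opposite strand of *Chat*, *Gm2990*, shares 0 exon bases with it and had 1 to 9 counts.

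*Slc18a3* (ENSMUSG00000100241), the vesicular transporter gene inside the *Chat* locus, had 53, 190, 39 and 45 counts in CDD replicates 1 to 4 and 45, 59, 72 and 45 counts in ND replicates 1 to 4. CDD replicate 2 alone was high, at 5.51 CPM against 0.906 to 2.08 CPM in the other 7 brains, which is 4.06 times their median. Between the diets the log2 fold change was 0.50 (95% interval -1.01 to 2.02, adjusted p 0.701, edgeR), and without this brain it turned to -0.36 (adjusted p 0.407), the highest and lowest adjusted p over its 18 alternatives being 0.902 and 0.407. The direction of *Slc18a3* between the diets therefore rested on a single brain.

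*Slc5a7* (ENSMUSG00000023945), the choline transporter that limits acetylcholine synthesis in nerve endings, lies at positions 54580618 to 54606062 of the minus strand of chromosome 17 in the authors' table. It measured 4.38, 6.49, 3.28 and 2.72 CPM in CDD replicates 1 to 4 and 3.10, 3.44, 3.01 and 3.33 CPM in ND replicates 1 to 4. The ND brains lay close together, while the CDD brains held both the 2 highest and the single lowest value. For *Slc5a7* the log2 fold change was 0.39 (95% interval -0.09 to 0.86, adjusted p 0.315, edgeR), and 0.10 without CDD replicate 2 (adjusted p 0.772, with a range of 0.0794 to 0.772 over the alternatives).

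These transporter genes were set beside markers of the neurons that use them. Of 6 motor neuron genes tested, 5 were highest in CDD replicate 2, as were 4 of the 10 acetylcholine genes (*Slc18a3*, *Slc5a7*, *Chrna3* and *Chrm2*), against 11.5% of all genes tested. So were 3 of 8 forebrain cholinergic markers (*Gbx1*, *Gbx2* and *Ngfr*, at 1.60 to 1.63 times the median of the other 7 brains) and 4 of 15 neuron markers, with *Nefl* at 1.72 and *Nefm* at 1.77 times that median. Of other cell types, 4 of 12 progenitor, 2 of 6 peripheral ganglion and 2 of 3 primitive erythroid genes were highest in CDD replicate 2. That held for 0 of 9 erythroid, 0 of 5 meningeal and 1 of 6 skeletal muscle genes tested. *Tbx20*, a factor of cranial motor neurons, was 11.0 times the median of the other 7 brains there, at 110 counts against 4 to 16, and *Prph*, a filament gene of motor and peripheral neurons, 4.72 times at 606 counts against 97 to 150. *Chat*, at 0.869 CPM, was not the highest in this brain, since CDD replicate 1 had 0.906 CPM. Genes with the closest profiles to *Slc18a3* were *Pax2*, *Prph* and *Sncg*, with root mean square differences of 0.324, 0.335 and 0.389 among 579 candidates. Those closest to *Slc5a7* were *Frzb*, *Nefh* and *Meis1*, at 0.148, 0.167 and 0.167 among 3704 candidates. How far the *Hox* and motor neuron transcripts of this brain bear on its transporter levels was not tested, and the values without it are given above.

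**Figure D3:**
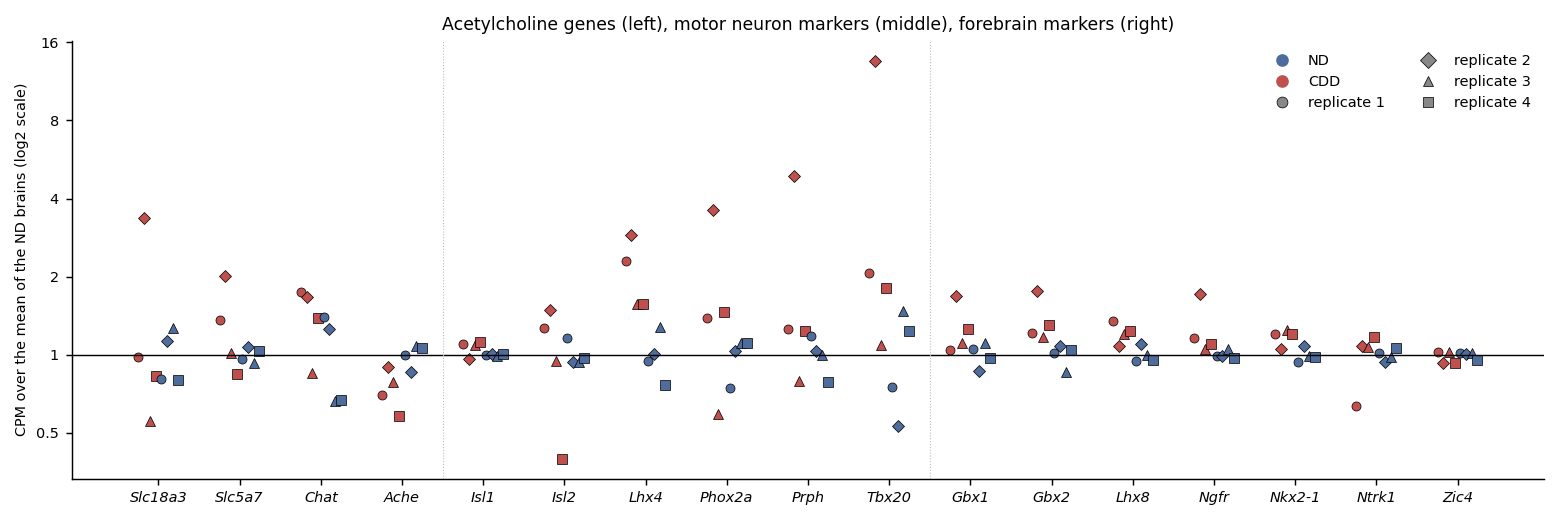
CPM of each brain divided by the mean of the 4 ND brains (log2 scale) for 4 acetylcholine genes on the left, the 6 motor neuron markers tested in the middle and the other 7 forebrain cholinergic markers on the right (*Isl1* is in both lists and stands with the motor neuron markers), in ND (blue) and CDD (red) brains, with symbols for the replicate numbers. CDD replicate 2 (red diamond) stands above the other brains for *Slc18a3*, *Slc5a7*, every motor neuron marker other than *Isl1*, and *Gbx1*, *Gbx2* and *Ngfr*, and within or below them for the rest.

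Within a brain, the ratio of transporter to enzyme transcripts does not depend on library scaling. The *Slc18a3* to *Chat* ratio in FPKM was 3.44, 12.34, 4.00 and 3.65 in CDD replicates 1 to 4 and 3.51, 5.48, 11.69 and 7.31 in ND replicates 1 to 4. Its log2 value was lower by 0.35 in CDD brains on average (-0.35 as CDD minus ND), with an exact two-sided permutation p of 0.629 (0.838 adjusted over the 4 ratios compared). Without CDD replicate 2 this difference was -0.79. The *Slc5a7* to *Chat* ratio ranged from 3.13 to 6.22 in CDD and from 3.53 to 7.99 in ND brains, with a log2 difference of -0.22 and an exact permutation p of 0.514 (0.838 adjusted). The denominators are the 12 to 30 *Chat* reads per brain, which limits both ratios.

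Among nicotinic subunits, *Chrna4* (ENSMUSG00000027577; positions 180660173 to 180685339, minus strand, chromosome 2 in the authors' table) had the largest difference of the 4 listed here. It measured 45.9, 57.8, 48.1 and 57.8 CPM in CDD replicates 1 to 4, and 44.4, 46.4, 45.1 and 44.5 CPM in ND replicates 1 to 4. CDD replicates 2 and 4 were the high ones, and CDD replicate 1 lay inside the ND range. The means were 52.4 ± 6.30 CPM in CDD and 45.1 ± 0.944 CPM in ND brains. The log2 fold change of 0.22 (SE 0.068, 95% interval 0.07 to 0.36) missed the threshold at 0.0555 (adjusted p, edgeR). Over 18 alternative fits it passed in 5, with adjusted p-values from 0.00358 to 0.165, and with DESeq2 it was 0.0379. Without CDD replicate 2 the log2 fold change was 0.17 (adjusted p 0.165).

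*Chrnb2* (ENSMUSG00000027950; positions 89653502 to 89671939, minus strand, chromosome 3), whose product assembles with that of *Chrna4*, differed little. Its CPM was 119.2, 129.7, 124.5 and 134.3 in CDD replicates 1 to 4 and 120.4, 122.3, 124.2 and 125.8 in ND replicates 1 to 4, which gave a log2 fold change of 0.04 with a 95% interval of -0.04 to 0.13. *Adar*, on the opposite strand, shares 1365 exon bases with *Chrnb2* (16.3% of its exon bases) and had 3972 to 5501 counts. Whether counting used strand is not given in the sources used here, so the effect of the shared stretch on the counts of either gene is not known. The *Chrna4* to *Chrnb2* ratio in FPKM was 0.642, 0.743, 0.645 and 0.718 in CDD replicates 1 to 4, and 0.615, 0.633, 0.606 and 0.591 in ND replicates 1 to 4. Every CDD brain was above every ND brain, with a log2 difference of 0.17. The exact two-sided permutation p was 0.0286, the smallest that 4 against 4 brains allow, and 0.114 after adjustment over the 4 ratios. A ratio that separates alone among 4 cannot fall under 0.05 with so few brains, so the adjusted value decides nothing here. Without CDD replicate 2 the log2 difference was 0.13.

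*Chrna3* (ENSMUSG00000032303), the subunit typical of autonomic ganglia and the habenula, lies between *Chrna5* and *Chrnb4* on chromosome 9, at positions 54917395 to 54933846 of the minus strand, with gaps of 2331 and 1591 bases. It measured 14.19, 15.44, 11.34 and 14.54 CPM in CDD replicates 1 to 4 and 14.45, 12.22, 14.49 and 13.28 CPM in ND replicates 1 to 4. Its log2 fold change was 0.02 (95% interval -0.17 to 0.22, adjusted p 0.908) and its ratio to *Chrnb2* differed by -0.02 (exact permutation p 0.943, the same after adjustment). Its cluster neighbours had log2 fold changes of 0.11 for *Chrna5* (adjusted p 0.714) and 0.24 for *Chrnb4* (adjusted p 0.493), and 0 of 5 habenula markers passed the threshold, with summed levels of 59.0 to 80.8 CPM in CDD and 60.3 to 64.2 CPM in ND brains.

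*Chrna7* (ENSMUSG00000030525; positions 62748440 to 62862317, minus strand, chromosome 7), whose product binds choline itself as well as acetylcholine, measured 14.1, 13.1, 13.4 and 13.1 CPM in CDD replicates 1 to 4. The ND replicates had 13.9, 15.3, 13.9 and 14.4 CPM, so that only CDD replicate 1 reached the ND range. The log2 fold change was -0.10, with a 95% interval of -0.24 to 0.05 and an adjusted p of 0.431 in edgeR's test. A fall of more than 0.24 on the log2 scale or a rise of more than 0.05 thus lies outside the interval. *Gm44741*, an unprocessed transcript model inside *Chrna7*, shares 0 exon bases with it and had 9 to 27 counts.

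Of the summed FPKM of the 14 nicotinic genes in the table, *Chrnb2* made up 43.1% to 46.0% and *Chrna4* 27.2% to 32.0%, so that this pair held most of the nicotinic transcripts in every brain. *Chrna4* took 30.1 ± 2.00% in CDD and 27.5 ± 0.333% in ND brains (SD, n = 4). The shares of *Chrna7* were 7.91% to 10.2% and those of *Chrna3* 6.56% to 8.52%. The muscle subunit *Chrna1* stayed at or under 0.251%. Total nicotinic FPKM was 32.65 to 36.78 in CDD brains and 32.06 to 32.91 in ND brains.

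**Figure D4:**
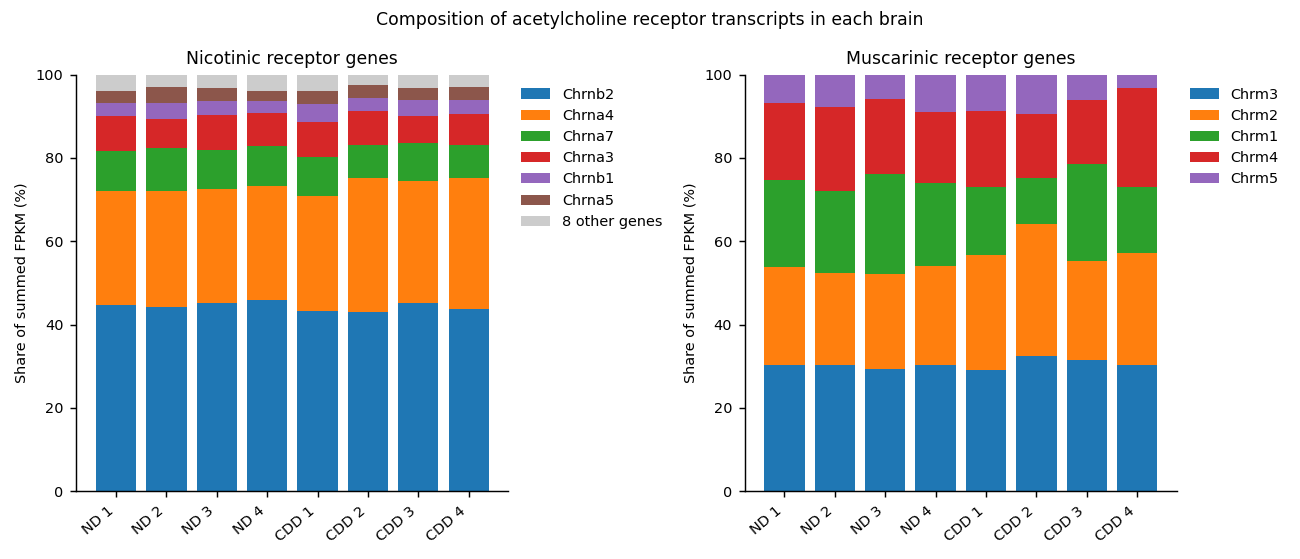
Share of each gene in the summed FPKM of 14 nicotinic (left) and 5 muscarinic (right) receptor genes, as stacked bars from 0 to 100% for each brain. *Chrnb2* and *Chrna4* fill most of every nicotinic bar, and *Chrm1* (green, right) takes its smallest share, 11.1%, in CDD replicate 2.

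*Chrm2* (ENSMUSG00000045613; positions 36365019 to 36505349, plus strand, chromosome 6), an inhibitory receptor that also sits on cholinergic endings, measured 7.31, 9.88, 6.53 and 8.39 CPM in CDD replicates 1 to 4. In ND replicates 1 to 4 it measured 8.05, 6.75, 7.60 and 7.62 CPM, so the CDD brains lay on both sides of the ND range. Its log2 fold change was 0.09 (95% interval -0.15 to 0.33, adjusted p 0.689), and -0.02 without CDD replicate 2 (adjusted p 0.935, the highest over its alternatives, the lowest being 0.306). *9330158H04Rik*, on the opposite strand, shares 142 exon bases with it (2.35%) and had 13 to 31 counts, and *Mir490*, in an intron, had 0 or 1 count.

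*Chrm3* (ENSMUSG00000046159; positions 9925522 to 10410883, minus strand, chromosome 13), an excitatory receptor that signals through calcium, measured 7.91, 10.5, 8.94 and 9.65 CPM in CDD replicates 1 to 4 and 10.6, 9.54, 10.2 and 10.1 CPM in ND replicates 1 to 4. Its log2 fold change was -0.13 (95% interval -0.32 to 0.06, adjusted p 0.424), within the spread of the CDD brains. *Gm26861* and *Gm47406*, which overlap *Chrm3* without sharing exon bases, had 0 to 2 and 0 or 1 count. Among the 5 muscarinic genes, *Chrm3* held 29.0% to 32.5% of the summed FPKM and *Chrm2* 22.1% to 31.7%.

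Beyond these 10 genes, a list of 26 other cholinergic genes was examined, of which 24 were in the table and 19 were tested. Of the 19, 4 fell (*Lypd6b*, *Ly6h*, *Lynx1* and *Chrm1*) and 0 rose, against backgrounds of 4.59% and 4.24%. Their median log2 fold change was -0.15, with 6 above and 13 below 0. *Lypd6b*, *Ly6h* and *Lynx1* encode members of the Ly6 family, anchored proteins that bind nicotinic receptors and tune their response, and the remaining 2 tested genes of this family on the list, *Lypd1* and *Lypd6*, did not pass. Without CDD replicate 2 the count was 3 of 19, since *Chrm1* was lost.

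*Lypd6b* measured 5.71, 6.11, 5.88 and 5.94 CPM in CDD replicates 1 to 4 and 7.52, 9.19, 7.92 and 8.41 CPM in ND replicates 1 to 4, with no overlap. It fell by 0.48 on the log2 scale (95% interval -0.68 to -0.28, adjusted p 0.00497, edgeR) and passed in 18 of 18 alternatives. *Ly6h* was the most expressed of these genes in CPM, with 179.4, 176.3, 200.0 and 148.2 in CDD and 220.2, 207.8, 231.5 and 221.4 in ND replicates 1 to 4. The diets did not overlap, and *Ly6h* fell by 0.32 (95% interval -0.48 to -0.17, adjusted p 0.0153), passing in 15 of 18 alternatives, whose adjusted p-values ranged from 8.35e-09 to 0.0581. It was lost without ND replicate 3.

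*Lynx1*, a brake on nicotinic receptors in the mature brain, measured 4.47, 6.64, 4.51 and 4.31 CPM in CDD replicates 1 to 4 and 7.02, 5.94, 8.96 and 6.70 CPM in ND replicates 1 to 4, where CDD replicate 2 reached the ND range. It fell by 0.52 (95% interval -0.84 to -0.21, adjusted p 0.0371) and passed in 10 of 18 alternatives (adjusted p from 0.000339 to 0.155). Leaving out any brain other than CDD replicate 2 or ND replicate 2 lost the call. The muscarinic receptor gene *Chrm1* measured 4.62, 3.71, 6.85 and 5.19 CPM in CDD and 7.58, 6.44, 8.62 and 6.81 CPM in ND replicates 1 to 4, where CDD replicate 3 reached the ND range. It fell by 0.52 (95% interval -0.85 to -0.20, adjusted p 0.0454) and passed in 9 of 18 alternatives (adjusted p from 0.000282 to 0.160). Leaving out CDD replicate 1, 2 or 4 or ND replicate 1, 3 or 4 lost the call, with an adjusted p of 0.0925 without CDD replicate 2.

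**Figure D5:**
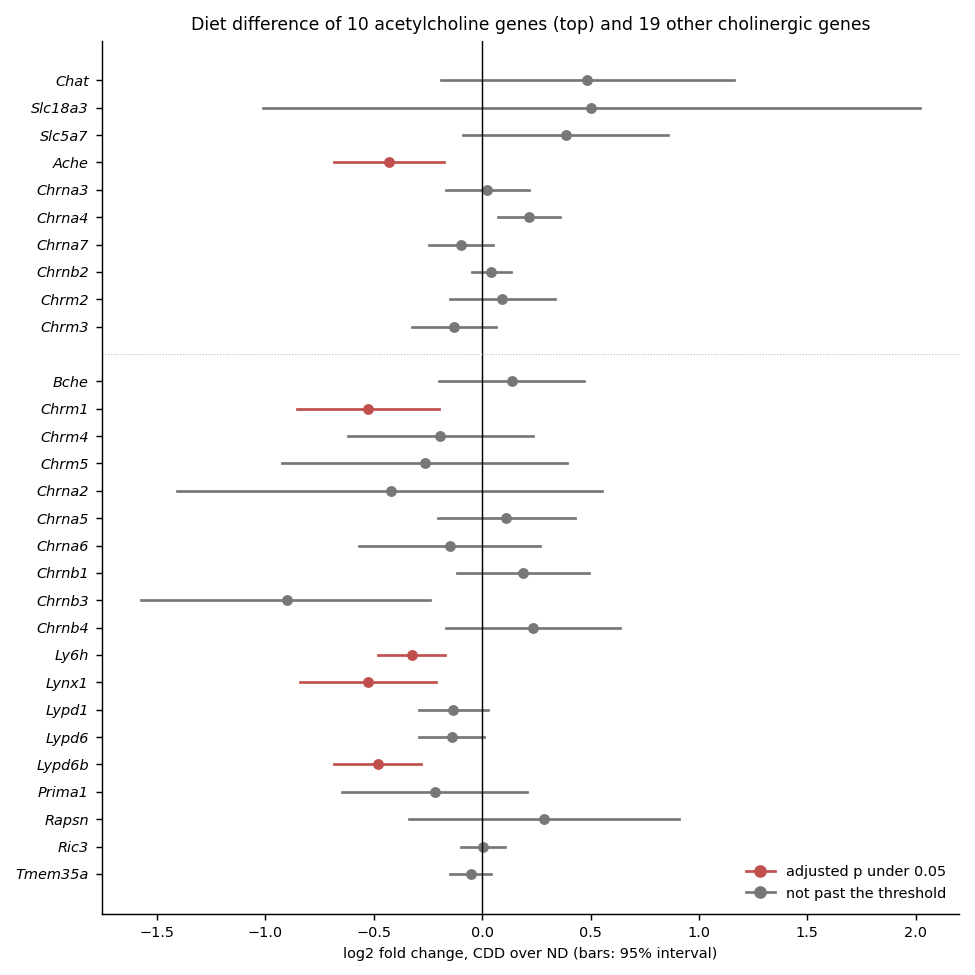
Log2 fold change (CDD over ND) with its 95% interval from edgeR's quasi-likelihood test for the 10 acetylcholine genes (top) and the 19 other cholinergic genes tested (bottom, in alphabetical order), in red where the adjusted p was under 0.05. The 5 red points, *Ache*, *Chrm1*, *Ly6h*, *Lynx1* and *Lypd6b*, lie below 0, and the interval of *Slc18a3* is the widest.

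Genes that supply choline and acetyl-CoA were examined beside the synthetic enzyme. Of 10 listed, which include the choline transporters of the *Slc44a* family, *Flvcr1*, *Flvcr2* and the choline kinases, 9 were tested, 1 rose and 0 fell, a share near the 8.83% of all genes tested that passed. The gene that rose was *Acly*, whose enzyme makes acetyl-CoA from citrate, with 462.1, 496.3, 487.1 and 524.7 CPM in CDD and 421.7, 433.6, 409.6 and 410.3 CPM in ND replicates 1 to 4. The diets did not overlap and the log2 fold change was 0.23 (95% interval 0.13 to 0.34, adjusted p 0.00800), with adjusted p-values of 8.66e-05 to 0.0650 over the alternatives. The call was lost without ND replicate 3 (0.0650).

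Of 8 markers of forebrain cholinergic neurons and their precursors, *Lhx8*, *Gbx2* and *Nkx2-1* rose and 0 fell, where 4.24% and 4.59% of all genes tested did so, and the summed levels of the list were 250.8 to 260.0 CPM in CDD and 229.0 to 240.6 CPM in ND brains. *Nkx2-1*, the patterning factor of the medial ganglionic eminence, rose by 0.24 on the log2 scale (adjusted p 0.0185, edgeR). *Lhx8*, which specifies cholinergic neurons there, rose by 0.28 (adjusted p 0.0378), and *Gbx2*, also a gene of the thalamus and anterior hindbrain, rose by 0.45 (adjusted p 0.0301). *Nkx2-1* passed in 13, *Gbx2* in 11 and *Lhx8* in 9 of 18 alternatives, with highest adjusted p-values of 0.0838, 0.121 and 0.124. Leaving out ND replicate 1, 3 or 4 lost each of these calls, CDD replicate 1 or 4 that of *Lhx8*, and CDD replicate 2 that of *Gbx2* (0.0814). Of 6 motor neuron genes tested, 1 rose, against 4.24% of all genes. This was *Lhx4*, with a log2 fold change of 1.05 (adjusted p 0.00614) and 0.85 without CDD replicate 2 (adjusted p 0.0171), which passed in 16 of 18 alternatives and missed in both fits on FPKM (0.0587 and 0.0663). *Chat* itself and *Slc5a7*, as given above, did not pass the threshold, and *Isl1*, shared by forebrain and motor cholinergic neurons, stood at a log2 fold change of 0.10 (adjusted p 0.293).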

How the data were processed

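Poly-A RNA of whole E14.5 WT brains was compared between CDD and ND, with samples grouped by the maternal diet in their labels. The authors deposited, for every gene, raw read counts of each brain and FPKM values, which divide a count scaled by a library size factor by gene length. The submitters' processing notes list HISAT2 2.0.5, featureCounts 1.5.0-p3 and DESeq2 1.20.0; the genome build, annotation and strand setting are not given in the sources used here. Columns of size-factor normalized signal and the authors' own comparison (log2 fold change, p-value, adjusted p-value) were not used, nor were the shorter lists selected by it.

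Counts were filtered with filterByExpr (19367 of 33971 genes passed). Libraries were scaled by TMM and the diets compared in edgeR 4.0.16 (robust quasi-likelihood test, diet as the single term, Benjamini-Hochberg adjustment over all genes tested, threshold 0.05); 95% intervals come from the same fit. CPM is the count relative to the TMM-scaled library. The common biological coefficient of variation was 0.0814. Ratios of FPKM were tested by exact permutation (two-sided, 70 divisions of the brains). The alternatives were RLE or upper-quartile scaling, DESeq2 1.42.0, limma-voom (limma 3.58.1), a minimum of 10 counts in every brain, no filter at all, *Xist* as a covariate, a block for the replicate number, limma-trend on FPKM with a pseudocount of 1 or 0.1 (log2 scale), a threshold of 0.01 and each brain left out. R 4.3.3, Python 3.11.15, pandas 2.3.3, NumPy 2.4.6 and SciPy 1.17.1 were used. Library totals of 31770217 to 43121170 counts cover sampling of reads only.

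The members and lists were chosen with earlier results of these data known. The genes named are all 10 members; genes past the threshold in the lists of other cholinergic, choline supply, forebrain cholinergic and motor neuron genes; the 3 genes with the closest centred log2 CPM profile (prior count 2, mean of at least 1 CPM, SD over the brains at least 0.5 times that of the member) to *Ache*, *Chat*, *Slc5a7* and *Slc18a3*; genes that overlap a member or share its cluster; and marker genes. Other genes, such as *Tbx20*, *Isl1* and single markers, were named after their values were seen. A few marker genes are not reported here. No pair of brains had counts within sampling noise of each other. No batch is given in the labels, and since nothing ties these brains to separate dams or litters, p-values measure the spread between these brains only. Exon overlaps were taken from GENCODE M21 (GRCm38) and promoters from RefSeq (GRCm38.p6).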

Additional observations from a re-analysis of the deposited data

Results flagged for a closer look

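The *Slc18a3* to *Chat* ratio of CDD replicate 2 stood far from those of the other CDD brains. Its log2 value was 3.63, against 1.78, 2.00 and 1.87 in CDD replicates 1, 3 and 4, and the gap made up 0.882 of the range of the 4 CDD brains, above Dixon's 95% critical value for 4 samples. In ND replicates 1 to 4 the log2 value was 1.81, 2.45, 3.55 and 2.87, so this brain was close to the ND brain with the highest ratio. It was the only one among the 28 groups of 4 brains examined, and chance alone flags about 1 in 20.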

How the results depend on the processing

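*Ache* was lower in CDD brains under every alternative tried, but its adjusted p exceeded 0.05 with *Xist* as a covariate (log2 fold change -0.4408, adjusted p 0.0832) and on FPKM with a pseudocount of 1 (-0.3578, 0.0886) or 0.1 (-0.4299, 0.0868), and the value of -0.4302 missed a threshold of 0.01. With the replicate number as a block it was -0.4413 (0.0807). The deviations of same-numbered brains correlated at 0.105, -0.133, 0.117 and 0.232. For replicates 1, 3 and 4 of both diets, the own number gave the highest correlation. CDD replicate 2 correlated best with ND replicate 4 (0.214), and ND replicate 2 with CDD replicate 1 (0.097). Whether equal numbers pair brains is not given in the labels. Under the block 1812 genes passed, against 1710, and the single acetylcholine gene that passed was *Chrna4* (0.0320). Leaving out each brain gave *Ache* values from -0.5347 to -0.3317. The count of acetylcholine genes past the threshold (1) was 2 with DESeq2 and without the filter, 0 with the *Xist* covariate, with both FPKM settings and at a threshold of 0.01, and 0 to 2 with a brain left out (0 without ND replicate 1, 3 or 4 and 2 without CDD replicate 3). The count of other cholinergic genes (4) was 1 with both FPKM settings and at 0.01, and 1 to 4 with a brain left out. For *Ache*, *Chrna4*, *Ly6h*, *Lynx1* and *Chrm1*, the lowest adjusted p over the alternatives came from the fit without the filter. With a brain left out, *Slc18a3* ranged from -0.3604 to 0.7926, *Chrm2* from -0.02259 to 0.1853 and *Chrna3* from -0.03089 to 0.1148. Signs turned for *Slc18a3* and *Chrm2* without CDD replicate 2, and for *Chrna3* with the *Xist* covariate (-0.007594) and without CDD replicate 2 (-0.03089), CDD replicate 4 (-0.001552) or ND replicate 2 (-0.02202). The cause of these shifts was not tested. For the 4 ratios, the log2 differences between the diets were the same with CPM in place of FPKM. Gene length and library scaling cancel in such a difference, so this setting could not change it and is no check. With a brain left out, 3 of these differences kept their direction, and that of *Chrna3* over *Chrnb2* ranged from -0.06736 to 0.06508. Across all genes, 390 and 404 passed with FPKM, 2495 without CDD replicate 3, and 471, 615 and 688 without ND replicates 3, 4 and 1. The 12 to 30 reads of *Chat* limit what can be said of it.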
